A study of Mus musculus with 12 samples.

Results

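The clustered protocadherins are cadherin-family adhesion proteins of the neuronal surface, encoded by 3 neighboring gene clusters on mouse chromosome 18 (mm10). All rows of the expression table whose symbol named an alpha, beta or gamma clustered protocadherin were taken, which gave 57 of 24091 genes. They comprised 14 members of the alpha cluster (Pcdha, 36930285 to 37188897), 21 of the beta cluster (Pcdhb, 37264998 to 37521419) and 22 of the gamma cluster (Pcdhg, 37661775 to 37841873). Pcdhb21 was not analysed here. RNA was measured in 12 mouse samples in 4 groups of 3. Medulloblastomas, hereafter tumors, came from mice GB344, GB359 and GB370, which carried a Brca2 allele lacking exons 3 and 4 (Brca2Δex3-4, deleted in the developing central nervous system by Cre under the human GFAP promoter) and a global knockout of Trp53 (a neo cassette in place of part of the gene). Adjacent cerebellum was dissected from the same 3 mice and carried the same genotype, labelled Brca2-mut;Trp53-mut. The 6 control cerebella were described as age-matched adult tissue and came from 3 Brca2-mut;Trp53-WT mice (GB361, GB508 and GB512) and 3 Brca2-WT;Trp53-mut mice (GB517, GB519 and GB520), so no group was wild type for both genes. Values of the tumors and of the adjacent cerebella are given in the order of mice GB344, GB359 and GB370 throughout.

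In these loci each variable exon has its own promoter, and an individual neuron switches on only a few of the alternate promoters, a choice that involves the architectural protein CTCF, cohesin and DNA methylation. In the alpha and gamma clusters each variable exon is spliced to constant exons at the end of the cluster, whereas beta genes have no constant exon. The C-type members (Pcdhac1, Pcdhac2, Pcdhgc3, Pcdhgc4 and Pcdhgc5) lie at the ends of the alpha and gamma clusters and are used more uniformly between neurons. The proteins bind like to like across cell membranes, and in the cerebellum the gamma proteins are known for keeping the dendrites of a single Purkinje cell apart from each other.

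The constant exons bear on what a gene-level value means here. In the GENCODE M21 annotation of the same build, the 13 alpha members with a transcript under their symbol shared 3 exons of 2860 bases, a median of 53.5% of their transcript bases. Pcdha10 had no transcript under its symbol, so its sharing was not assessed. In the gamma cluster 3 exons of 2119 bases were each used by 10 or more of the 22 members. The gamma members shared a median of 44.8% of their transcript bases, and Pcdhgb8 the least, 13.4%. The 21 beta members had a single exon each and shared 0%. Of the 75-base windows of a member's transcripts, 75 bases being the read length, a median of 42.0% occurred in no other gene in the alpha cluster, 53.65% in the gamma cluster and 98.8% in the beta cluster. The values were TPM (transcript abundance scaled for transcript length and library total), in which reads from shared exons are divided between genes by the quantifier. Values of single alpha and gamma members are therefore less certain than those of beta members. Among the members assessed, the least certain were Pcdhga10 with 1.6% and Pcdha4 with 9.2% of windows of their own. The read depth of the samples is unknown, so the error given is the spread between mice.

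Across the 12 samples TPM totals were between 999793 and 999876, and between 15088 and 15803 genes reached 1 TPM. Of the targeted genes, Brca2 had 8.22 to 14.6 TPM in tumors, 4.52 to 6.98 TPM in adjacent cerebella and 3.24 to 4.40 TPM in controls. Trp53 had 124 to 130 TPM in tumors, 66.1 to 85.0 TPM in adjacent cerebella, 33.1 to 37.2 TPM in the cerebella labelled Brca2-mut;Trp53-WT and 47.1 to 49.4 TPM in those labelled Brca2-WT;Trp53-mut. Gene-level TPM includes transcripts without the deleted exons, so these values check no genotype, and groups are named as labelled. Marker genes placed the tumors apart from the controls, a comparison in which 14.4% of all genes were called higher and 21.5% lower. All 6 markers each of granule neurons, Purkinje cells, cerebellar interneurons and oligodendrocytes were called lower in tumors than in controls. So were 5 of 6 of astrocytes and Bergmann glia and 1 of 5 of endothelium. Called higher were 6 of 6 of granule cell progenitors and 2 of 6 of microglia. Against the adjacent cerebella the counts called lower were the same, while 1 of 6 progenitor and 0 of 6 microglia markers were called higher. Choroid plexus markers were not called, although their summed level differed between the control genotypes. It was 17.7 to 877 TPM in the Brca2-mut;Trp53-WT and 3962 to 5183 TPM in the Brca2-WT;Trp53-mut cerebella. The 3 serotonergic markers were too low to be tested. The summed progenitor markers were 77.9 to 518 TPM in adjacent cerebella against 36.3 to 53.3 TPM in controls and 814 to 1793 TPM in tumors. Atoh1, the transcription factor that defines granule cell progenitors, had 59.4, 50.5 and 4.997 TPM in the adjacent cerebella of mice GB344, GB359 and GB370 and at most 0.212 TPM in controls. In bulk tissue, fewer cells of a type and less RNA per cell cannot be told apart, and the part of cell composition in the results that follow was not tested.

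The 3 clusters differed in how much RNA they kept in tumors. The summed TPM of the alpha cluster was 27.2, 27.4 and 33.5 in tumors, 65.9, 65.7 and 67.2 in the adjacent cerebella of these mice, and 76.2 to 90.9 in the 6 controls. The gamma sum was 238, 243 and 209.8 TPM in tumors, 421, 467 and 452 TPM in adjacent cerebella, and 430 to 535 TPM in controls. The beta sum was 100.02, 121 and 88.1 TPM in tumors, 128, 107 and 92.7 TPM in adjacent cerebella, and 93.7 to 108 TPM in controls. Every tumor thus lay below every cerebellum for alpha and gamma, while the tumors spanned the control range for beta. The mean tumor sum was 35.9% of the control mean for alpha and 49.6% for gamma. For beta it was 101%, at 103 ± 16.4 TPM (SD, n = 3) against 102 ± 4.98 TPM (SD, n = 6).

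**Figure D1:**
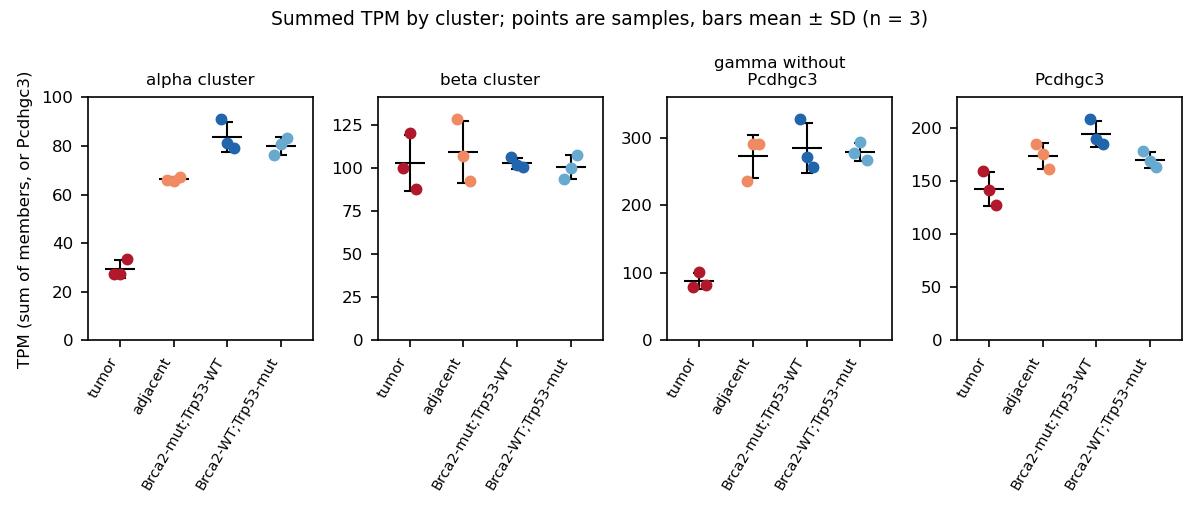
Summed TPM per sample (y axis, linear from 0) for the alpha cluster, the beta cluster, the gamma cluster without Pcdhgc3, and Pcdhgc3 alone, by group; points are samples and bars are the mean ± SD of 3 samples. Tumors lie below all cerebella for alpha (at most 33.5 TPM) and for gamma without Pcdhgc3 (at most 101 TPM), and overlap the cerebella for beta.

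Member by member, tumors were compared with the 6 control cerebella by limma on log2(TPM + 1) across the 16241 genes that reached 1 TPM in 3 or more of the 9 samples. Calls required a log2 fold change of 1 or more in either direction at a Benjamini-Hochberg adjusted p under 0.01. The added 1 shrinks the fold change of weakly expressed members below their ratio of TPM. The p-values rest on the spread between these mice, with the variance of each gene moderated toward a trend over all tested genes. The control genotypes were joined as a single group. Of the 57 members 55 were tested, with Pcdhb1 and Pcdha8 below the filter. In tumors 23 members were called lower (41.8% of those tested, against 21.5% of all genes) and 1 was called higher (1.8%, against 14.4% of all genes). The median log2 fold change was −0.85 for the members and −0.11 for all genes, the latter moving to 0.06 with quantile normalization, under which the member median was −0.63. All 22 gamma members had negative log2 fold changes in each of the 4 scalings run. By cluster, 16 of 22 gamma members and 7 of 13 tested alpha members were called lower, against 0 of 20 tested beta members. The gamma calls were 10 of 12 gamma A, 4 of 7 gamma B and 2 of 3 gamma C-type members.

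**Figure D2:**
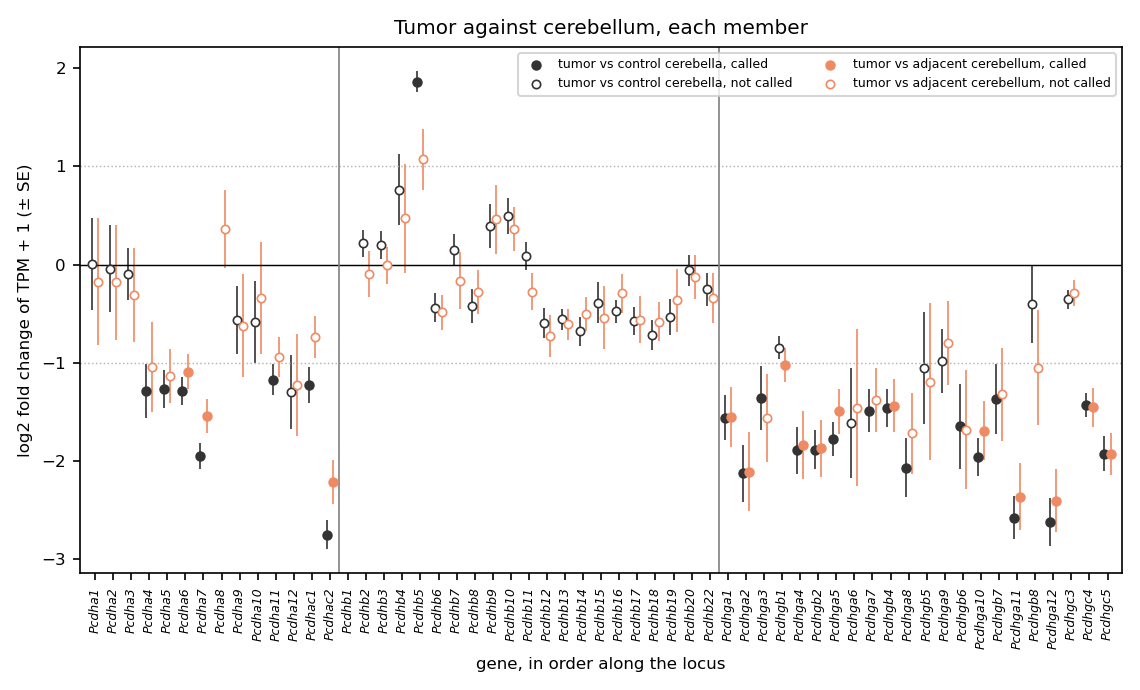
Log2 fold change of TPM + 1 (y axis, ± SE) of each tested member, in order along the locus with the alpha, beta and gamma clusters separated by vertical lines; black is tumor against the 6 control cerebella, orange tumor against the adjacent cerebella, filled points were called. Gamma members lie below 0 in both comparisons, with medians of −1.59 and −1.52. Beta members lie on both sides of 0, with medians of −0.32 and −0.28, and Pcdhb5 is highest.

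Among the C-type members, Pcdhac2 had the largest fall. Pcdhac2 (Entrez 353237), needed for the spacing of serotonergic axons, was the most abundant alpha member of every cerebellum. It had 4.35, 4.42 and 7.44 TPM in the tumors, compared with 25.4, 28.5 and 30.4 TPM in their adjacent cerebella. In controls its lowest, median and highest values were 37.5, 41.2 and 44.5 TPM. The 3 groups did not overlap, with the adjacent cerebella between tumors and controls. The log2 fold change between tumors and controls was −2.75 (SE 0.14, limma adjusted p = 7.27e-08). Pcdhac2 made up 48.9% to 51.9% of the alpha sum in controls, 38.6% to 45.2% in adjacent cerebella and 15.97% to 22.2% in tumors.

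Pcdhgc3 (Entrez 93706), which binds Axin1 and promotes dendrite branching, was the most abundant member in all 12 samples and was not called. It had 159, 142 and 127 TPM in the tumors, compared with 185, 176 and 161 TPM in their adjacent cerebella, against a lowest, median and highest control of 163, 182 and 208 TPM. All 3 tumors lay below all cerebella, by a margin that was small beside the level. Its log2 fold change against controls was −0.35 (SE 0.10, limma adjusted p = 0.00728), below the fold change minimum. Pcdhgc3 made up 36.6% to 41.9% of the gamma sum in controls and 58.3% to 66.9% in tumors. Without Pcdhgc3 the gamma sum was 78.8, 101 and 82.4 TPM in tumors and 257 to 327 TPM in controls.

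The remaining gamma C-type members were called lower. Pcdhgc4, required for the survival of inhibitory interneurons, had 4.61, 6.16 and 6.86 TPM in tumors and 16.02 to 19.9 TPM in controls (median 17.2). Pcdhgc5, a partner of synaptic GABA receptors, had 2.89, 2.90 and 3.43 TPM in tumors and 11.5 to 21.6 TPM in controls (median 14.2). Neither gene overlapped between the groups. The log2 fold change was −1.43 (SE 0.13, limma adjusted p = 2.83e-06) for Pcdhgc4 and −1.93 (SE 0.18, limma adjusted p = 3.64e-06) for Pcdhgc5. Pcdhac1, the remaining alpha C-type member, had 1.25, 0.873 and 1.72 TPM in tumors and 3.39 to 5.85 TPM in controls, and was called lower with a log2 fold change of −1.23 (SE 0.18, limma adjusted p = 0.000146).

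The alternate gamma members, each transcribed from its own stochastically chosen promoter, were called lower in 14 of 19 cases and higher in 0. Their sum was 71.3, 92.3 and 72.2 TPM in tumors against 225 to 289 TPM in controls. The largest changes were those of Pcdhga12, Pcdhga11 and Pcdhga2. For Pcdhga12 the tumors had 1.52, 4.26 and 1.90 TPM and the controls a lowest, median and highest value of 16.9, 18.1 and 29.0 TPM, a log2 fold change of −2.63 (SE 0.24, limma adjusted p = 3.96e-06). For Pcdhga11 the tumors had 2.48, 7.29 and 3.85 TPM and the controls 27.5, 29.97 and 33.1 TPM, a log2 fold change of −2.58. For Pcdhga2 the tumors had 0.513, 3.26 and 0.814 TPM and the controls 6.98, 8.67 and 11.5 TPM, a log2 fold change of −2.13. None of the 3 overlapped between the groups, and tumor GB359 was the highest tumor for each. The smallest changes of the cluster were those of Pcdhgc3, Pcdhgb8 and Pcdhgb1. Pcdhgb1 had 2.74, 3.13 and 3.599 TPM in tumors and 5.75 to 7.05 TPM in controls, a log2 fold change of −0.85 that passed on p (limma adjusted p = 8.74e-05) and not on size. Pcdhgb8 ranged from 1.42 to 10.3 TPM among tumors and from 4.22 to 6.09 TPM in controls (limma adjusted p = 0.377). Its log2 fold change of −0.40 rested on single tumors, moving to −1.07 without tumor GB370, which was a call (limma adjusted p = 0.000781), and to 0.05 without tumor GB359.

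The alternate alpha members were low in every tissue, with sums of 34.1 to 40.6 TPM in controls and 21.6, 22.1 and 24.3 TPM in tumors. Pcdha7 changed most. It was listed at 0.222, 0 and 0 TPM in tumors and between 2.73 and 3.68 TPM in controls, a log2 fold change of −1.95 (SE 0.13, limma adjusted p = 4.30e-07). Pcdha4, Pcdha5, Pcdha6 and Pcdha11 were also called lower. Pcdha1, Pcdha2 and Pcdha3 had the highest log2 fold changes of the cluster, 0.00, −0.04 and −0.10, none was called, and the sign of each changed with single tumors left out. Pcdha12, the most abundant alternate alpha member of controls with 6.14 ± 1.09 TPM (SD, n = 6), had 0.765, 5.94 and 0.948 TPM in the tumors and missed the threshold with a log2 fold change of −1.30 (SE 0.38, limma adjusted p = 0.0106). Pcdha12 was called lower without tumor GB359 (−1.93, limma adjusted p = 1.11e-05), with TPM rescaled without the most abundant gene (limma adjusted p = 0.00855) and with all 4 groups fitted together (limma adjusted p = 0.00775).

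In the beta cluster, whose single-exon genes share no exon with each other, Pcdhb5 was the only member called higher. Pcdhb5 (Entrez 93876, 37320381 to 37323913) had 13.1, 14.2 and 15.2 TPM in the tumors, compared with 10.3, 5.74 and 3.90 TPM in their adjacent cerebella. Its control values were 2.85 TPM at the lowest, 3.19 TPM at the median and 3.42 TPM at the highest. The 3 groups did not overlap, and the adjacent cerebella lay between the tumors and the controls. The log2 fold change between tumors and controls was 1.87 (SE 0.11, limma adjusted p = 1.34e-07), and it was between 1.82 and 1.92 with each sample left out in turn. Of the 57 members, 1 (Pcdhb5) had all tumors above all controls, a pattern found in 28.3% of all genes. The opposite pattern, all tumors below all controls, held for 33 members, against 35.7% of all genes, with 18 of 22 gamma, 8 of 21 beta and 7 of 14 alpha members. Pcdhb4 and Pcdhb10 had the next highest log2 fold changes of the cluster, 0.76 and 0.49, and were not called. Pcdhb4 had 8.87, 7.39 and 1.52 TPM in the tumors against 2.10 to 2.98 TPM in controls, and was called higher when tumor GB370 was left out, with a log2 fold change of 1.38 (limma adjusted p = 3.8e-05).

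Along the beta cluster the direction changed with position. Ordered along the chromosome, the 10 tested members from Pcdhb2 to Pcdhb11 had positive log2 fold changes in 8 cases, and the 10 members from Pcdhb12 to Pcdhb22 in 0. The boundary was placed after the values were seen, and no test was made of it. The summed TPM of the upstream stretch was 53.3 to 67.4 in tumors and 33.3 to 40.9 in controls, and that of the downstream stretch was 34.6 to 53.2 in tumors and 60.4 to 70.6 in controls. Neither stretch overlapped between tumors and controls. The upstream sum of the adjacent cerebella, 36.3 to 56.9 TPM, overlapped that of the tumors. With median-of-ratios scaling the highest downstream tumor sum (53.8) lay just above the lowest sum of any cerebellum (53.7). Pcdhb5 carried much of the upstream difference, and without it the upstream sum was 38.2 to 53.2 TPM in tumors and 30.3 to 38.1 TPM in controls, with hardly a gap between the lowest tumor and the highest control. With median-of-ratios scaling or quantile normalization 1 downstream member turned positive and the upstream count stayed at 8. Against the adjacent cerebella the directions depended on the scaling, with 4 upstream and 0 downstream members positive as deposited, 7 and 1 with median-of-ratios scaling and 9 and 4 with quantile normalization. Pcdhb18, Pcdhb14 and Pcdhb12 had the lowest log2 fold changes, −0.71, −0.68 and −0.59, and none reached the fold change minimum. Pcdhb17, the most abundant beta member of controls, had 8.93, 10.02 and 5.91 TPM in the tumors and 12.6 ± 0.537 TPM (SD, n = 6) in controls (log2 fold change −0.58, limma adjusted p = 0.00417). Only 37.1% of the windows of Pcdhb12 were its own, unlike those of the other beta members. Spearman's rho between position and log2 fold change was −0.611 over the 20 beta members, −0.582 over 13 alpha members and 0.03 over 22 gamma members. These values describe genes of the same 9 samples and carry no p.

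**Figure D3:**
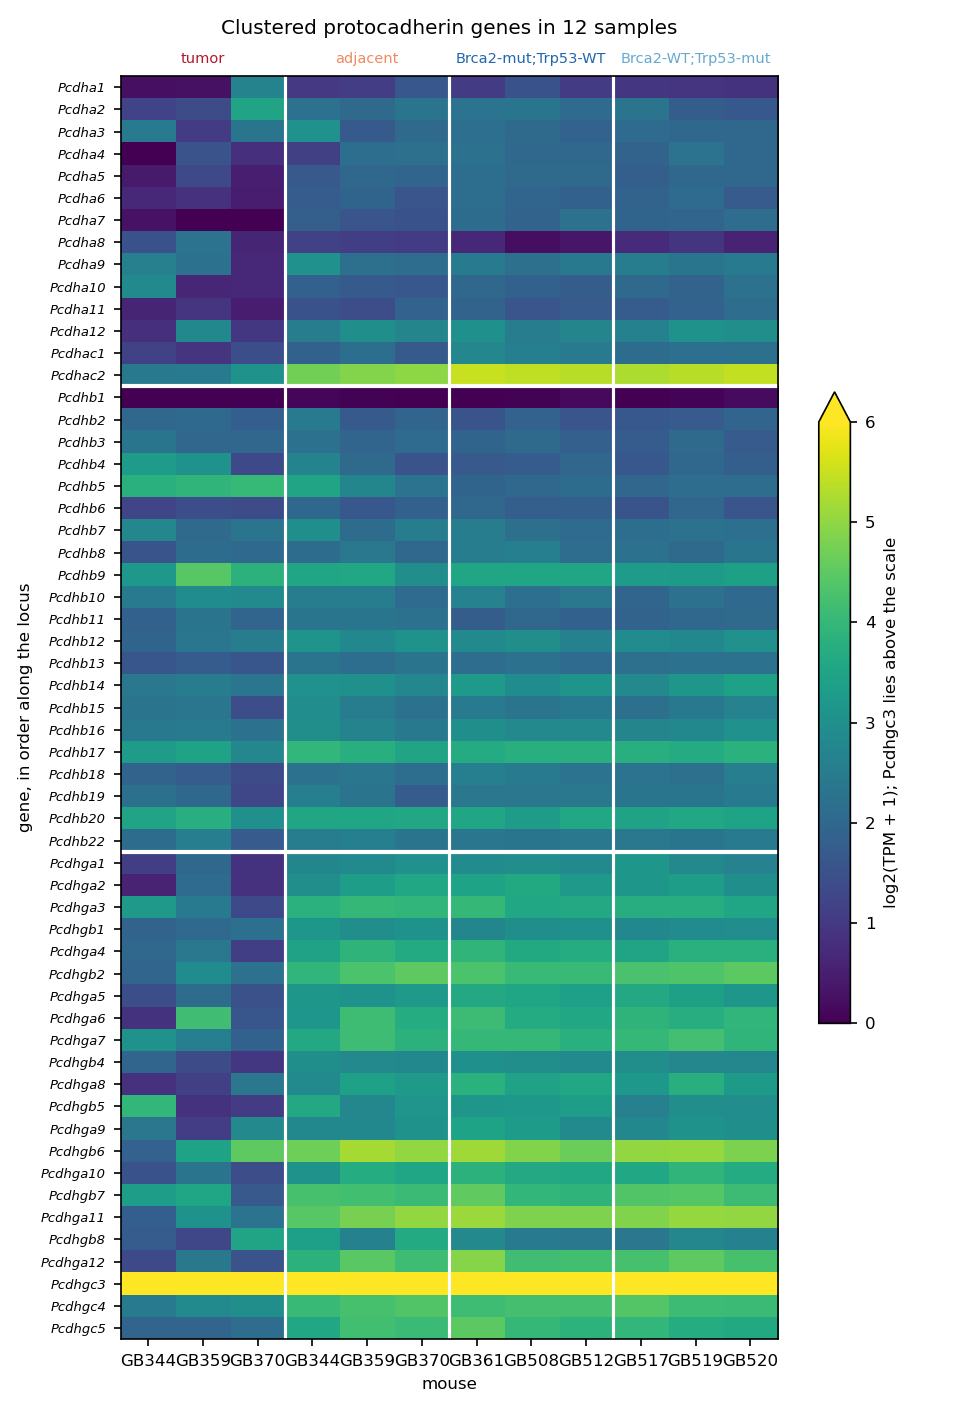
Level of each of the 57 members (rows, in order along the locus, white lines between clusters) in the 12 samples (columns, by group and mouse number), as log2(TPM + 1) on a color scale from 0 to 6, above which Pcdhgc3 lies throughout. The gamma rows and Pcdhac2 are darker in tumors, Pcdhb5 is brighter, and single alternate members stand out in single tumors.

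The same tumors were then compared with the adjacent cerebella of the same mice, in a fit without the mouse as a block. Over all genes tested here the fold changes had a log2 median of −0.14, which quantile normalization moved to 0.14. Here 15 of 56 tested members were called lower (26.8%, against 18.0% of all 15845 genes) and 0 higher (against 4.76%). An unadjusted p under 0.05 was found for 29 members, and the share of all genes at that cut was not computed. The calls were 12 of 22 gamma, 3 of 14 alpha and 0 of 20 beta members. Pcdhac2 (log2 fold change −2.21, SE 0.22, limma adjusted p = 0.00046), Pcdhga12 (−2.40), Pcdhga11 (−2.36), Pcdhgc5 (−1.93) and Pcdhgc4 (−1.45) were among those called lower. Pcdhgc3 was not called, at −0.29 (SE 0.13, limma adjusted p = 0.101). Pcdhb5 was at 1.07 (SE 0.31, limma adjusted p = 0.0256) and was called higher when the adjacent cerebellum of mouse GB344 was left out (1.40, limma adjusted p = 0.00584). The number called lower ranged from 6 to 16 with samples left out, with 6 without the adjacent cerebellum of mouse GB359 and 9 without that of mouse GB344, that of mouse GB370 or tumor GB370. Scaling moved the balance over all genes, from 755 higher and 2852 lower to 1439 and 2406 with median-of-ratios scaling and 1648 and 2136 with quantile normalization. The member counts moved to 0 higher and 13 lower and to 1 higher and 9 lower, respectively.

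Between the adjacent cerebella and the 6 controls, limma called 0 of 56 tested members in either direction (against 0.224% of 16091 genes higher and 0.0124% lower). An unadjusted p under 0.05 was found for 8 members, again without a share of all genes to set beside it. Pcdhac2 had a log2 fold change of −0.54 (SE 0.08, limma adjusted p = 0.00949) and Pcdhb5 one of 0.79 (SE 0.22, limma adjusted p = 0.0391). Neither was called, since Pcdhac2 passed on p and missed the fold change minimum and Pcdhb5 missed both. For each, the values of the adjacent cerebella did not overlap those of the controls and lay on the side of the tumors. Of the 57 members, 3 (Pcdhb5, Pcdhb11 and Pcdha8) had all adjacent cerebella above all controls, and 2 (Pcdhac2 and Pcdha7) had all below. The share of all genes with this pattern was not computed. For Pcdhb11 and Pcdha8 the tumors overlapped the controls. The order of Pcdhb5 among the adjacent cerebella, 10.3, 5.74 and 3.90 TPM in mice GB344, GB359 and GB370, was also the order of Atoh1 in these samples, and the part of tumor cells in these values was not tested. Between the control genotypes, limma called 0 of 55 tested members in either direction (against 0.0128% of 15575 genes higher and 0.0449% lower in Brca2-mut;Trp53-WT). An unadjusted p under 0.05 was found for 3 members, also without a share of all genes. The range of the 55 log2 fold changes was −0.23 to 0.44, with Pcdhac1 highest (limma adjusted p = 0.135).

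Individual tumors differed in which alternate members they contained. The highest of the 3 tumors was at least 3 times the lowest, on TPM + 1, for 14 of the 57 members, against 5.11% of the 16498 genes that reached 1 TPM in 3 samples. Among genes with a mean of 1 to 10 TPM in tumors the counts were 13 of 46 members, against 9.21% of 4975 genes. In the adjacent cerebella, the Brca2-mut;Trp53-WT and the Brca2-WT;Trp53-mut cerebella such a spread was found in 0 of 57 members (against 4.66%, 2.5% and 1.83% of all genes). The 14 members were 6 alternate alpha, 1 beta and 7 alternate gamma members, and 0 of the 5 C-type members were among them. The median spread over the 57 members was 1.85-fold in tumors, 1.37-fold in adjacent cerebella, 1.204-fold in Brca2-mut;Trp53-WT and 1.201-fold in Brca2-WT;Trp53-mut cerebella.

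Examples, chosen after their values were seen, are given for each tumor. In tumor GB344, Pcdha10 was at 6.17 TPM and Pcdhgb5 at 14.7 TPM, against 0.574 and 0.614 TPM and 0.850 and 1.11 TPM in tumors GB359 and GB370. In tumor GB359, Pcdhga6 was at 16.8 TPM and Pcdha8 at 3.85 TPM, against 0.845 and 2.06 TPM and 1.86 and 0.536 TPM in tumors GB344 and GB370. In tumor GB370, Pcdha1 was at 5.39 TPM and Pcdha2 at 10.3 TPM, against 0.194 and 0.197 TPM and 1.32 and 1.60 TPM in tumors GB344 and GB359. Of these 6 members, Pcdha10, Pcdhgb5, Pcdha8, Pcdha1 and Pcdha2 were higher in that tumor than in any of the 6 controls, and Pcdhga6 (highest control 16.2 TPM) narrowly so. Of the 14 members, 5 were highest in tumor GB344, 4 in tumor GB359 and 5 in tumor GB370.

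Fewer members reached 1 TPM in tumors. At least 1 TPM was reached by 46, 49 and 44 of 57 members in tumors, against 55 to 56 in adjacent cerebella and 54 to 55 in controls. Over all genes, 15088 to 15270 reached 1 TPM in tumors, 15755 to 15803 in adjacent cerebella and 15123 to 15661 in controls. Of the 12 alternate alpha members, 5, 7 and 3 reached 1 TPM in the tumors, against 10 to 12 in cerebella. The part of the lower level of the members in these counts was not tested. Evenness was given as the effective number of members, the number of equally used members with the same Shannon entropy. For the alternate alpha members it was 6.49, 7.99 and 5.47 in tumors and 10.4 to 10.9 in controls. For the 19 alternate gamma members it was 13.3, 14.4 and 11.6 in tumors and 16.3 to 17.1 in controls. For the beta members it was 16.8, 15.6 and 15.2 in tumors and 17.1 to 17.7 in controls, so all 3 sets lay below the control range in all tumors. With the C-type members included, the direction was opposite for alpha, at 8.19, 9.52 and 7.06 in tumors against 6.53 to 7.003 in controls. The adjacent cerebella, at 8.40, 7.95 and 7.78, also lay above the controls and within the tumor range, so this was not particular to tumors. Pcdhac2 alone held 48.9% to 51.9% of the alpha sum in controls. For the whole gamma cluster, led by Pcdhgc3, the effective number was 4.64 to 6.31 in tumors and 10.9 to 12.2 in controls. The member that led the alternate alpha members was Pcdha12 in all 6 controls, with 13.8% to 19.8% of their sum. In tumors it was Pcdha10 (28.5%), Pcdha12 (26.8%) and Pcdha2 (42.2%).

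**Figure D4:**
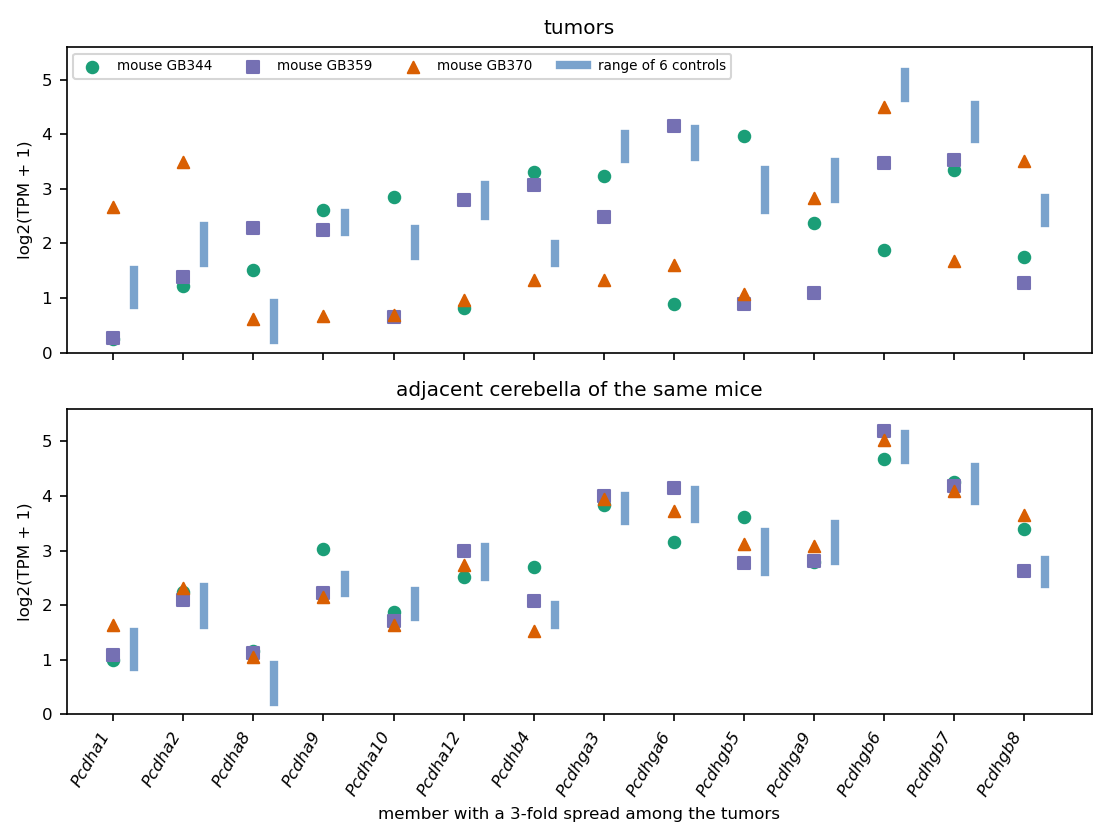
Level, as log2(TPM + 1), of the 14 members whose highest tumor was at least 3 times the lowest on TPM + 1 (x axis), in the tumors (upper panel) and in the adjacent cerebella of the same mice (lower panel); symbols mark the mice and blue bars the range of the 6 controls. In the tumors a different mouse is highest for different members, and in the adjacent cerebella the 3 mice lie closer together.

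The members that stood out in a tumor were then looked up in the adjacent cerebellum of that mouse. For 10 of the 14 members the mouse with the highest tumor also had the highest adjacent cerebellum, against 52.1% of the 843 genes with such a spread in tumors, and with 14 members these shares were not compared by a test. Pcdhgb5, highest in tumor GB344, had 11.3 TPM in the adjacent cerebellum of mouse GB344 and 5.84 and 7.70 TPM in those of mice GB359 and GB370. Pcdha1, highest in tumor GB370, had 2.11 TPM in the adjacent cerebellum of mouse GB370 and 0.997 and 1.12 TPM in those of mice GB344 and GB359. For Pcdha8, Pcdhga3, Pcdhgb6 and Pcdhgb7 the highest tumor and the highest adjacent cerebellum came from different mice. Pcdha8, highest in tumor GB359, had 1.22, 1.17 and 1.08 TPM in the adjacent cerebella. Over the 57 members, deviations from the group mean of log2(TPM + 1) in a tumor and in the adjacent cerebellum had Pearson's r of 0.578, 0.602 and 0.420 within mice GB344, GB359 and GB370 and −0.406 to −0.0549 between different mice. Deviations of 3 samples from their own mean sum to 0, which lowers the values between mice, and genes are not independent, so no p is given. Over all 15845 tested genes the values within these mice were 0.249, 0.176 and 0.152. The r was lowest in mouse GB370, whose adjacent cerebellum had the least Atoh1 of the 3, and the part of tumor RNA in the adjacent pieces was not tested.

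Genes that act on or beside the clusters were counted from a list each, for tumors against controls, where 14.4% of all genes were called higher and 21.5% lower at a median of −0.11. Of 21 regulators of the clusters, 4 were called higher and 0 lower, with a median log2 fold change of 0.51, and the higher share was near that of all genes. The largest were Dnmt3b (1.67, limma adjusted p = 8.29e-06) and Dnmt1 (1.39, limma adjusted p = 3.12e-06), which methylate DNA, and Smchd1 (1.40, limma adjusted p = 6.15e-07), a chromatin protein that represses clustered protocadherin genes. Ctcf, which binds the promoters and enhancers of the clusters, had 101 to 138 TPM in tumors and 61.3 to 78.3 TPM in controls, a log2 fold change of 0.65 below the fold change minimum. Of 24 cytoplasmic partners and processing genes, 2 were called higher and 4 lower, neither share above that of all genes. They included Cyfip2 (−3.01) of the WAVE complex, which binds many protocadherins, and Marcks (2.63) and its kinase Prkca (−2.35), which act in gamma protocadherin signaling. Of 11 tested non-clustered protocadherins, 6 were called lower and 1 higher, with Pcdh9 at −3.15, Pcdh1 at −2.01 and Pcdh18 at 2.81. Of 17 tested genes that flank or lie within the clusters on the chromosome, 1 was called lower, Rell2 at −3.09, and 0 higher, with a median of 0.15.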

How the data were processed

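RNA was sequenced from 12 mouse samples. The authors quantified poly(A)-selected 75-base reads with Salmon 0.8.1 on the mm10 knownGene transcripts and summed them to genes with tximport, and the deposited values are TPM per gene and sample. Sequencing depth is not given by TPM. The members and gene lists were chosen with earlier results of these data known. TPM were transformed to log2(TPM + 1), filtered (genes reaching 1 TPM in 3 or more of the compared samples) and tested with limma 3.58.1 in R 4.3.3 (lmFit, eBayes with trend), using only the groups compared and p-values adjusted over every gene tested (Benjamini-Hochberg). The model was tested on simulated data, in which only well expressed genes were changed, all by the same size of log2 fold change. That simulation does not bear on the calls of weakly expressed members or on smaller changes. Named members were the C-type members and, per cluster, the highest and lowest 3 log2 fold changes and the most abundant member. From each list the 3 called genes with the largest changes were named. Ctcf, Atoh1, Pcdha4, Pcdha5, Pcdha6, Pcdha11, Pcdhb11, Pcdhga3, Pcdhgb6, Pcdhgb7 and the examples of uneven members were added after their values were seen. Tumor and adjacent samples share mouse numbers, and same-mouse deviations correlated in all 3 pairs (r of 0.152 to 0.249 over all tested genes). The main fit of tumor against adjacent cerebellum did not use this pairing, and a fit with the mouse as a block was run as an alternative. Sums, spreads and exon sharing were computed in Python 3.11.15, with positions from RefSeq GRCm38.p6. Member sequences were not used in the text, and 0 sample columns were left unused.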

Additional observations from a re-analysis of the deposited data

Results flagged for a closer look

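Dixon's test at the 95% level, which chance passes in about 1 of 20 groups, was run on the 6 control cerebella for 25 values, the 22 named members and the 3 cluster sums, and 3 stood apart. The Brca2-mut;Trp53-WT cerebellum of mouse GB361 had a gamma cluster sum of 535 TPM, against 430 to 463 TPM in the other 5. The same sample had 21.6 TPM of Pcdhgc5, against 11.5 to 15.0 TPM in the other 5, a member that is part of that sum. The Brca2-mut;Trp53-WT cerebellum of mouse GB508 had 1.86 TPM of Pcdha1, against 0.830 to 1.07 TPM in the other 5.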

How the results depend on the processing

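Depth is unknown for TPM, so the precision of low alternate members rests on 3 mice a group, and the single alpha and gamma values rest on how reads in the constant exons were divided. The counts of called members given here are higher and lower in tumors against controls (1 and 23), in tumors against adjacent cerebellum (0 and 15) and in adjacent against control cerebella (0 and 0). With an adjusted p under 0.05 and no fold change minimum they were 2 and 36, 1 and 25, and 1 and 1. Against adjacent cerebellum, quantile normalization gave 1 and 9, and fitting all 4 groups together gave 1 higher. With the mouse as a replicate block, the paired fit against adjacent cerebellum gave 0 and 14, and the block changed the call of no named member. Leaving out each replicate in turn gave 1 to 2 higher and 21 to 24 lower against controls, 0 to 1 higher and 6 to 16 lower against adjacent cerebellum, and 0 to 1 higher for adjacent against control cerebella, the 1 being Pcdhb5 without the adjacent sample of mouse GB370. The 2 were Pcdhb5 and Pcdhb4, without tumor GB370. Between control genotypes the counts were 0 in every setting run. Median-of-ratios scaling moved the log2 ratio of summed TPM for the gamma cluster from −1.01 to −0.900 against controls and from −0.96 to −0.74 against adjacent cerebellum, and for adjacent against control cerebella from −0.06 to −0.16. For the alpha cluster it moved from −1.17 to −0.96 against adjacent cerebellum and from −0.31 to −0.41 for adjacent against control cerebella. The cause of these shifts was not tested. The ratios of the beta sum stayed within the spread between replicates of their value in every setting run. The number of members with a spread among tumors, 14 at 3-fold, was 24 at 2-fold, 7 at 4-fold and 22 with a pseudocount of 0.1, settings chosen after seeing the data. Of 1616 single-member values under another setting, 1478 kept their direction and their side of the threshold, 17 lost a call and 27 gained one. The remaining 94 were not called and changed sign, in 30 member comparisons whose own log2 fold changes were at most 0.40 in size, and no called value changed sign. Over all genes, the share of higher among called genes moved from 94.7% to 69.5% with quantile normalization for adjacent against control cerebella (41 higher, 18 lower) and from 22.2% to 66.7% between control genotypes (2 higher, 1 lower).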
